A study of Saccharomyces cerevisiae with 8 samples.

Results

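The proteasome subunit genes of Saccharomyces cerevisiae were described in RNA-seq counts from 4 evolved strains. Members were the protein-coding gene rows named PRE, PUP, RPN or RPT followed by digits only, together with SCL1, which gave 34 of 6600 genes. Of these, 32 encode subunits, 14 of the core particle and 18 of the regulatory particle. RPN4, a transcription factor, and RPN14, an assembly chaperone, share the RPN name and were kept apart. SEM1, which encodes a further lid subunit, does not carry an RPN name and was placed with the related genes.

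The proteasome degrades proteins that carry ubiquitin chains. Its core particle is a barrel of alpha and beta rings with the proteolytic sites inside the beta rings, and its regulatory particle is a base of ATPases that unfolds substrates and a lid that removes ubiquitin. Most subunit genes share a promoter element known as PACE, the proteasome-associated control element, which is bound by Rpn4. The Rpn4 protein is itself a rapidly degraded substrate of the proteasome, and when proteasome activity falls it accumulates and raises transcription of the subunit genes.

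The study asked how copy number variants (CNVs) at GAP1, the gene of the general amino acid permease, affect gene expression. DGY1726 (Trans) carries a transposon-mediated tandem duplication within a translocation and an additional CNV on chromosome V. DGY1735 (ODIRA_A) and DGY1743 (ODIRA_B) carry triplications formed by origin-dependent inverted-repeat amplification (ODIRA), and DGY1741 (ComQuad) carries a complex amplification with extra copies of GAP1. Every strain is haploid and descends from FY4/S288C with a fluorescent CNV reporter and a kanamycin resistance cassette next to GAP1, and each is a clone isolated after long-term selection, with DGY1741 and DGY1743 isolated later than DGY1726 and DGY1735. All were grown at 30 °C in glutamine-limited chemostats at a doubling time of 5.8 h and were harvested after 24 h of continuous inflow and 2 min in cycloheximide at 100 μg/L, as the labels give it. Each strain had 2 replicate cultures and 1 library from each. The ancestor was not analysed here, so that every comparison is between evolved strains and between single clones.

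Protein-coding totals ranged from 9125509 to 13205947 counts per library. Between 0.053% and 0.096% of them came from the mitochondrial genome in the libraries of DGY1726, DGY1735 and DGY1741, against 13.2% and 19.2% in the libraries of DGY1743, which therefore stand apart. Subunit genes took 0.705% and 0.688% of the protein-coding counts in DGY1743 and between 0.654% and 0.764% in the other libraries. As a share of nuclear protein-coding counts alone they took 0.811% and 0.852% in DGY1743 and between 0.655% and 0.764% in the other libraries. Levels are given as CPM, the usual unit of the counts of a gene relative to the size of its library, with library sizes scaled by trimmed mean of M-values (TMM) factors.

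The subunit genes lie on 13 chromosomes, and none of the 34 members lies on an amplified segment of any strain. None contains a 50-base stretch, the length of a read, that occurs elsewhere in the genome. RPT1 overlaps the gene YKL145W-A on the same strand, and reads in the shared stretch were counted for both. All 34 passed the low-count filter, set at a mean of 100 counts per library, and the subunit genes held between 331 and 8180 counts per library.

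PACE was searched for as GGTGGCAAA on either strand in the 300 bases before each start codon. It was found for 27 of 32 subunit genes (84.4%), 12 of 14 in the core and 15 of 18 in the regulatory particle, against 78 of 6599 protein-coding genes (1.18%). The 6-base core of the element, GGTGGC, which lies within it, was found for 29 subunit genes (90.6%) and for 445 genes (6.74%). The element started between 84 and 183 bases before the start codon with a median of 120, and it read in the direction of the gene in 19 of 27 cases. No match was found for PRE5, PUP1 and RPN8. Windows are shown for PRE2, PUP3, RPN11 and RPT1, which are among the genes with the smallest p of the beta ring, lid and base, for SCL1, RPN2 and RPN12, whose order of strains ran differently, and for RPN10 and RPN13, which held the 6-base core alone. They are read along the gene's strand from the R64 genome of RefSeq, with the element in capitals.
PRE2 (chrXVI:732184-732212, forward strand): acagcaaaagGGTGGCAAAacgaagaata
PUP3 (chrV:349511-349539, reverse strand): tggcactgccGGTGGCAAAaaagtgcaaa
RPN11 (chrVI:153259-153287, forward strand): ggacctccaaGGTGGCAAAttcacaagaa
RPT1 (chrXI:174048-174076, forward strand): attaccgaatTTTGCCACCcgaaaactaa
SCL1 (chrVII:475337-475365, reverse strand): cacacaccaaTTTGCCACCgtaaggatag
RPN2 (chrIX:220801-220829, reverse strand): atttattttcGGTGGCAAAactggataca
RPN12 (chrVI:252398-252426, forward strand): ctacacattaTTTGCCACCcattgaaatt
RPN10 (chrVIII:498971-498999, forward strand): gcgggttttcGCCACCggaatttacaact
RPN13 (chrXII:965656-965684, reverse strand): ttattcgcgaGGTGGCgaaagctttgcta
RPT1, SCL1, RPN12 and RPN10 hold the element on the opposite strand, where it reads TTTGCCACC, or GCCACC for the 6-base core. A match is a match of letters and not a measured binding site.

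Levels per length differed among the subunit genes although the complex holds its subunits in fixed proportion. Averaged over the 8 libraries, the level was highest for PUP2, an alpha ring gene, at 381 CPM per kb of coding length, followed by PRE3 at 349 CPM per kb and RPN8 at 334 CPM per kb. It was lowest for PRE5 at 63.9 CPM per kb, PRE1 at 68.9 CPM per kb and SCL1 at 72.9 CPM per kb. Genes of the core particle thus held both ends of the range, and the regulatory particle gene with the lowest level was RPN12, a lid gene, at 89.9 CPM per kb. DGY1743 had the highest mean level for 25 of 32 subunit genes, whereas DGY1726 had the lowest for 17 and DGY1741 for 14. DGY1735 was highest for 3 and lowest for none. These counts were not made over all tested genes, so that no background share stands beside them.

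**Figure D1:**
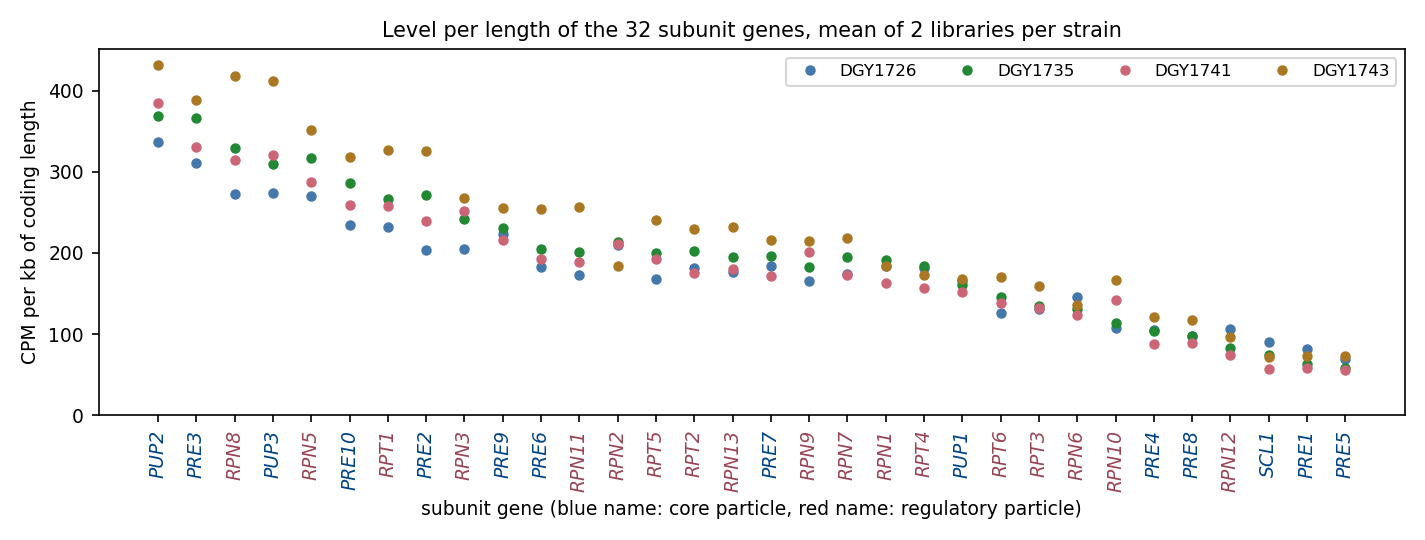
Level of each of the 32 subunit genes in CPM per kb of coding length (y axis), one point per strain (mean of 2 libraries), with genes ordered by their mean over all libraries and names coloured by particle. DGY1743 is the highest point for 25 genes, a count not made over all tested genes, and the order runs from PUP2 to PRE5.

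RPN4, the regulator, was lowest in DGY1741. Its level was 360 and 440 CPM in the libraries of DGY1726, 374 and 415 CPM in DGY1735, 219 and 230 CPM in DGY1741 and 345 and 361 CPM in DGY1743. Both libraries of DGY1741 lay below the other 6, and DGY1726 overlapped both DGY1735 and DGY1743. RPN4 differed among the strains (edgeR quasi-likelihood F-test, Benjamini-Hochberg adjusted p = 0.000559). Against the mean of the other 3 strains its log2 ratio was -0.77 (SE 0.10, adjusted p = 0.000111) in DGY1741, 0.35 (SE 0.10, adjusted p = 0.025) in DGY1726, 0.32 (SE 0.10, adjusted p = 0.0364) in DGY1735 and 0.10 (SE 0.10, adjusted p = 0.489) in DGY1743.

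The higher level of RPN4 in DGY1726 and DGY1735 rested on DGY1741. In pairs of strains, RPN4 was higher in DGY1726 than in DGY1741 by 0.83 on the log2 scale (SE 0.12, edgeR adjusted p = 1.97e-05), higher in DGY1735 than in DGY1741 by 0.80 (SE 0.12, adjusted p = 0.000174) and lower in DGY1741 than in DGY1743 by a log2 ratio of -0.66 (SE 0.14, adjusted p = 2.16e-05). No pair without DGY1741 passed the threshold of 0.05, with adjusted p between 0.324 and 0.973. Without both libraries of DGY1741, an alternative added after the data were seen, the adjusted p of RPN4 among the 3 strains left was 0.488. The call in DGY1741 held when any 1 library was left out (log2 ratio -0.81 to -0.73). The call in DGY1726 was lost without its replicate 2 (log2 ratio 0.19, adjusted p = 0.403) and without replicate 1 of DGY1741, and that in DGY1735 was lost in 6 of 8 cases, with log2 ratios between 0.24 and 0.39.

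**Figure D2:**
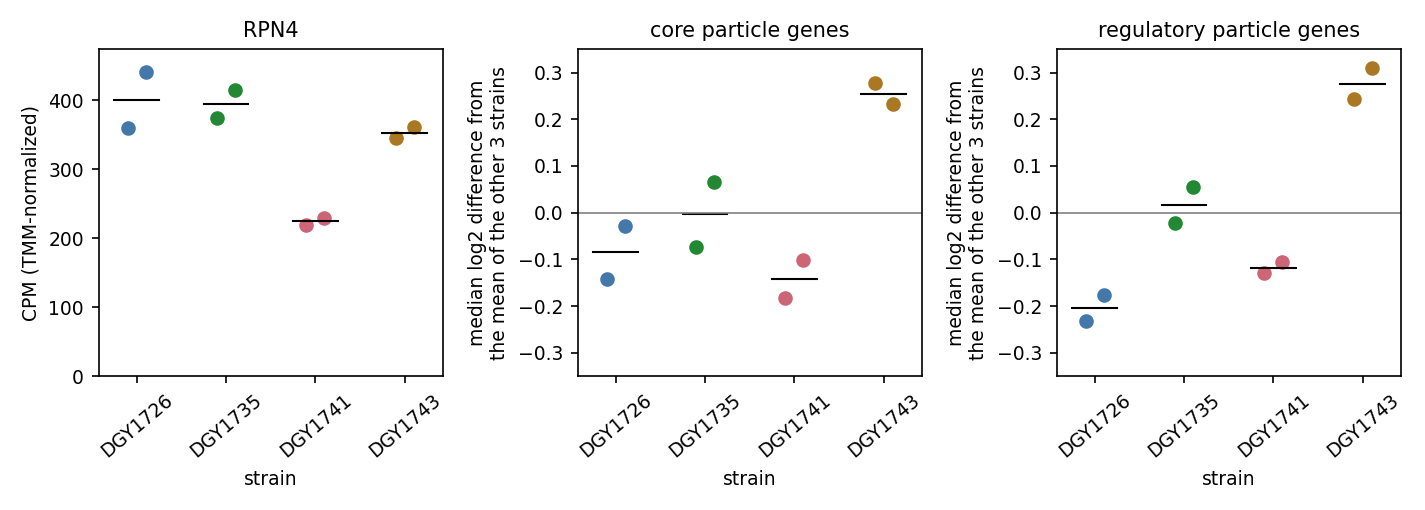
Left, RPN4 in CPM for each library (points) with the strain mean (line). Middle and right, the median over core and over regulatory particle genes of the log2 difference of each gene from its mean in the other 3 strains, for each library. RPN4 is lowest in DGY1741 at 219 and 230 CPM, and both particles are highest in DGY1743.

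Core and regulatory particle genes were both highest in DGY1743. The median log2 difference of the core genes from their mean in the other 3 strains was 0.28 and 0.23 in the libraries of DGY1743, and that of the regulatory particle genes was 0.24 and 0.31. In DGY1726 the core medians were -0.14 and -0.03 and the regulatory medians -0.23 and -0.18. In DGY1741 they were -0.18 and -0.10 for the core and -0.13 and -0.11 for the regulatory particle, and in DGY1735 all 4 medians lay between -0.07 and 0.07. For both particles the medians of the 2 libraries of DGY1743 were above those of the other 6, although each strain has its own reference here. A mean shift of this kind was not tested, since the genes of a list are not replicates.

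RPN4 was low in DGY1741. There the log2 ratio to the mean of the other strains was above 0 for 5 of 32 subunit genes, against 2664 of 5527 tested genes. In DGY1726, where the ratio of RPN4 was 0.35, it was above 0 for 10 of 32, against 2790 of 5527. In DGY1735, with RPN4 at 0.32, the counts were 17 of 32 and 2739 of 5527. In DGY1743, with RPN4 at 0.10, they were 29 of 32 and 2778 of 5527. Whether the subunit genes follow RPN4 was not tested. The medians of the subunit genes stood furthest from 0 in DGY1743. The counts of RPN4 per 100 subunit counts were 5.71 and 6.81 in DGY1726, 5.53 and 5.76 in DGY1735, 3.31 and 3.50 in DGY1741 and 4.53 and 4.52 in DGY1743. The libraries of DGY1743 and DGY1741 lay apart on this measure from one another and from the remaining 4. Ribosome footprints and protein were not analysed here, so that the amount of Rpn4 protein is not known from these values.

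**Figure D3:**
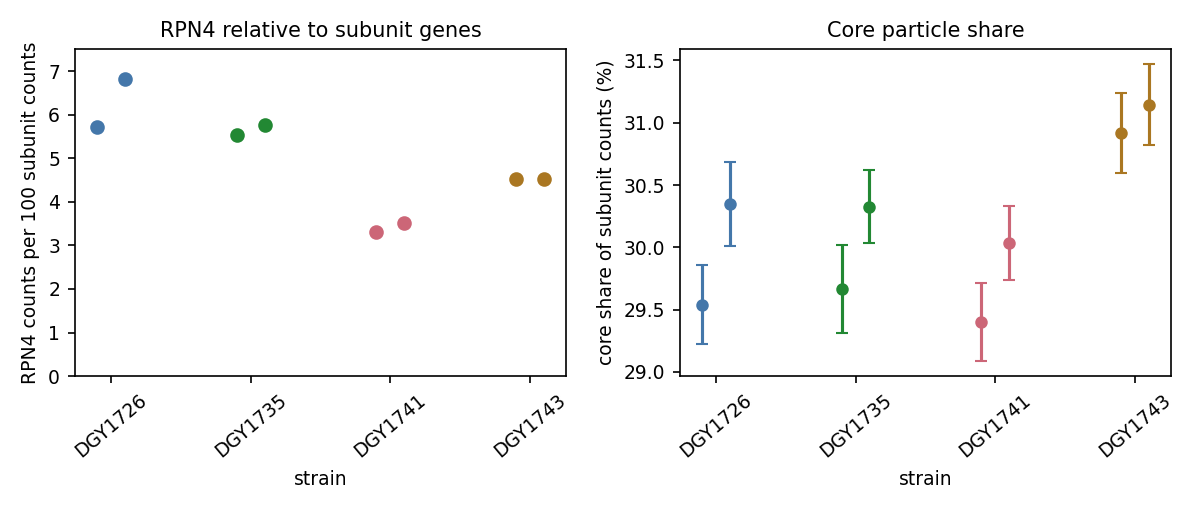
Left, RPN4 counts per 100 subunit gene counts in each library. Right, the share of subunit counts that came from the 14 core genes in each library, with Wilson 95% intervals that cover counting error only (axis does not start at 0). RPN4 per subunit count is lowest in DGY1741 at 3.31 and 3.50, and the core share is highest in DGY1743 at 30.9% and 31.1%.

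The balance between the particles differed little. Core genes took 29.5% (Wilson 95% interval 29.2 to 29.9) and 30.3% (30.0 to 30.7) of the subunit counts in DGY1726, 29.7% (29.3 to 30.0) and 30.3% (30.0 to 30.6) in DGY1735, 29.4% (29.1 to 29.7) and 30.0% (29.7 to 30.3) in DGY1741, and 30.9% (30.6 to 31.2) and 31.1% (30.8 to 31.5) in DGY1743. The share was above that of the other 6 libraries in both libraries of DGY1743. Replicates of DGY1726, DGY1735 and DGY1741 differed from each other by more than counting error.

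Among the 4 strains, 14 of 32 subunit genes differed, 4 of 14 in the core and 10 of 18 in the regulatory particle (edgeR quasi-likelihood F-test, 8 libraries, adjusted p under 0.05). Over all 5527 tested genes the share was 47.3%, so that the count of subunit genes was near this background. The count was 6 without replicate 2 of DGY1743, 7 without replicate 1 of DGY1741, 9 without replicate 1 of DGY1726 and between 10 and 15 without any other library. It was 4 when both libraries of DGY1743 were left out and 9 without those of DGY1726, alternatives added after the data were seen. The comparisons of each strain with the mean of the other 3 share libraries and are not independent of each other.

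In DGY1743, 15 of 32 subunit genes were higher than the mean of the other strains and none was lower, against 13.3% of all tested genes called higher and 8.05% called lower. The 15 were 4 of 14 core genes (PRE6, PRE10, PUP3 and PRE2) and 11 of 18 regulatory particle genes, among them 5 of the 6 ATPase genes. The log2 ratio was above 0 for 29 of 32, with a median of 0.26 over the core and 0.28 over the regulatory particle, while the median over all tested genes was 0.0018. The ratios ran from -0.21 for RPN2 to 0.47 for RPN10. In 18 of 32 genes both libraries of DGY1743 lay above the other 6, which held for 10.5% of all tested genes. Without replicate 2 of DGY1743 the count of calls was 4, and PRE2 and RPN10 were the only 2 of the 15 that kept theirs. It was between 10 and 18 without any other single library. The high mitochondrial share of 13.2% and 19.2% was found in the libraries of DGY1743 alone, so that it cannot be told apart from the strain. With factors and totals from nuclear genes outside the amplified segments the count was 16 and the medians were 0.27 and 0.29. As a share of all protein-coding counts, subunit genes took 0.705% and 0.688% in DGY1743, against 0.693% and 0.764% in DGY1735. By that share, which includes mitochondrial counts, they were not higher in DGY1743 than in DGY1735. They were higher than in DGY1726, at 0.654% and 0.668%, and than in DGY1741, at 0.673% and 0.682%. The calls therefore hold relative to the scaled library sizes.

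**Figure D4:**
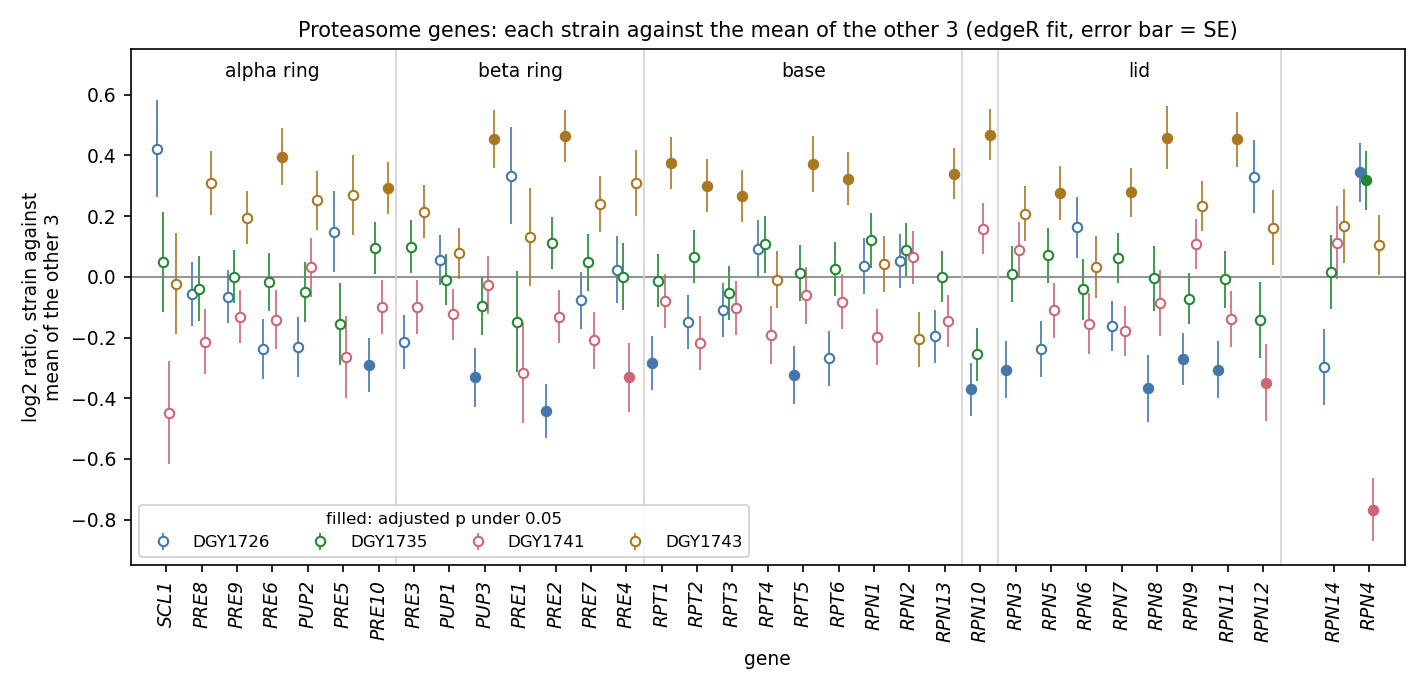
Log2 ratio of each strain to the mean of the other 3 for the 32 subunit genes, RPN14 and RPN4 (edgeR fit), with bars for the SE and filled points for adjusted p under 0.05. In DGY1743 29 of 32 subunit ratios are above 0, and the largest ratio in size is that of RPN4 in DGY1741 at -0.77.

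In DGY1726, 10 of 32 subunit genes were lower than the mean of the other strains and none was higher, against 11.2% of all tested genes called lower and 12.1% called higher. These were PRE10, PUP3 and PRE2 of the core and RPT1, RPT5, RPN3, RPN8, RPN9, RPN11 and RPN10 of the regulatory particle. The median log2 ratio was -0.07 over the core and -0.22 over the regulatory particle, and the ratios ran from -0.44 for PRE2 to 0.42 for SCL1. In 12 of 32 genes both libraries of DGY1726 lay below the other 6, against a share of 9.06% over all tested genes. The count of calls rested on single libraries. It was 0 without replicate 2 of DGY1726, where the spread of that strain is taken from the other strains, 3 without its replicate 1, and 2 and 6 without replicates 1 and 2 of DGY1741. With no low-count filter it was 5.

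In DGY1741, 2 of 32 subunit genes were lower, PRE4 of the beta ring and RPN12 of the lid, against 18.3% of all tested genes called lower and 18.5% called higher in that strain. The median log2 ratio was -0.14 over the core and -0.11 over the regulatory particle, from -0.45 for SCL1 to 0.16 for RPN10. The adjusted p was 0.0366 for PRE4 and 0.048 for RPN12, and the count was 0 without replicate 1 of DGY1741, replicate 2 of DGY1726 or replicate 2 of DGY1735, 1 without replicate 2 of DGY1741, and 4 without replicate 1 of DGY1735 or replicate 2 of DGY1743. In 5 genes both libraries of DGY1741 lay below the other 6, as in 16.4% of all tested genes. In DGY1735 no subunit gene passed in edgeR, against 21.4% of all tested genes in either direction. There 1 subunit gene, RPN10, had an unadjusted edgeR p under 0.05, against 1895 of 5527 tested genes. DESeq2 called 0 subunit genes, against 1308 of all tested genes. Both medians lay within 0.01 of 0.

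In the alpha ring, which gates entry to the core, PRE6 and PRE10 had the smallest p and PRE9 the largest. PRE6 was at 140 and 140 CPM in DGY1726, 143 and 170 CPM in DGY1735, 139 and 154 CPM in DGY1741 and 184 and 205 CPM in DGY1743, with a log2 ratio of 0.40 (SE 0.09, edgeR adjusted p = 0.0117) in DGY1743. PRE10 was at 207 and 200 CPM in DGY1726, 241 and 256 CPM in DGY1735, 223 and 226 CPM in DGY1741 and 257 and 294 CPM in DGY1743. Both genes were highest in DGY1743 without overlap, and PRE10 was also lowest in DGY1726 without overlap (log2 ratio -0.29, SE 0.09, adjusted p = 0.0348), a call lost in 6 of 8 cases of leaving out 1 library. PRE9, which encodes the one alpha subunit that yeast can live without, was at 162 and 185 CPM in DGY1726, 173 and 185 CPM in DGY1735, 163 and 172 CPM in DGY1741 and 199 and 198 CPM in DGY1743. It did not pass the test among the strains (adjusted p = 0.232), although the DGY1743 libraries were again the highest. The PRE6 call in DGY1743 was lost without replicate 2 of that strain (adjusted p = 0.132).

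SCL1, of the alpha ring, ran differently. It was at 68.8 and 67.4 CPM in DGY1726, 52.3 and 59.6 CPM in DGY1735, 37.6 and 49.0 CPM in DGY1741 and 67.1 and 40.9 CPM in DGY1743. The libraries of DGY1726 were the highest, and those of DGY1743 lay far apart. The test among the strains gave an adjusted p of 0.0891, and in the pair of DGY1726 with DGY1741 SCL1 was higher in DGY1726 by 0.65 on the log2 scale (SE 0.14, edgeR adjusted p = 0.000977). PRE1, RPN6 and RPN12 likewise had their highest mean in DGY1726. The mean of PRE5 was highest in DGY1743, at 51.5 CPM against 48.4 CPM in DGY1726. SCL1, PRE1, PRE5 and RPN12 are the 4 subunit genes with the lowest levels per length, whereas RPN6 stood at 134 CPM per kb. Whether the order of strains goes with the level was not tested.

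In the beta ring, which holds the proteolytic sites, PRE2 differed most. PRE2 encodes the subunit with chymotrypsin-like activity. Its level was 176 and 175 CPM in DGY1726, 230 and 238 CPM in DGY1735, 216 and 197 CPM in DGY1741 and 266 and 297 CPM in DGY1743. It was lowest in DGY1726 and highest in DGY1743 without overlap, with log2 ratios of -0.44 (SE 0.09, edgeR adjusted p = 0.00485) and 0.46 (SE 0.08, adjusted p = 0.00239), and in DGY1726 against DGY1743 the log2 ratio was -0.67 (SE 0.12, adjusted p = 0.000334). The call in DGY1743 held without any 1 library and that in DGY1726 was lost without replicate 2 of DGY1726 (adjusted p = 0.0572). PUP3, whose product has no proteolytic site of its own, was at 171 and 168 CPM in DGY1726, 185 and 198 CPM in DGY1735, 207 and 190 CPM in DGY1741 and 229 and 281 CPM in DGY1743, a log2 ratio of 0.45 (SE 0.09, adjusted p = 0.00539) in DGY1743. That call was lost without replicate 2 of DGY1743 (adjusted p = 0.106). PUP1, which encodes the subunit with trypsin-like activity and has no PACE match, had the largest p of the ring (0.551), at 118 to 136 CPM over the 8 libraries.

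**Figure D5:**
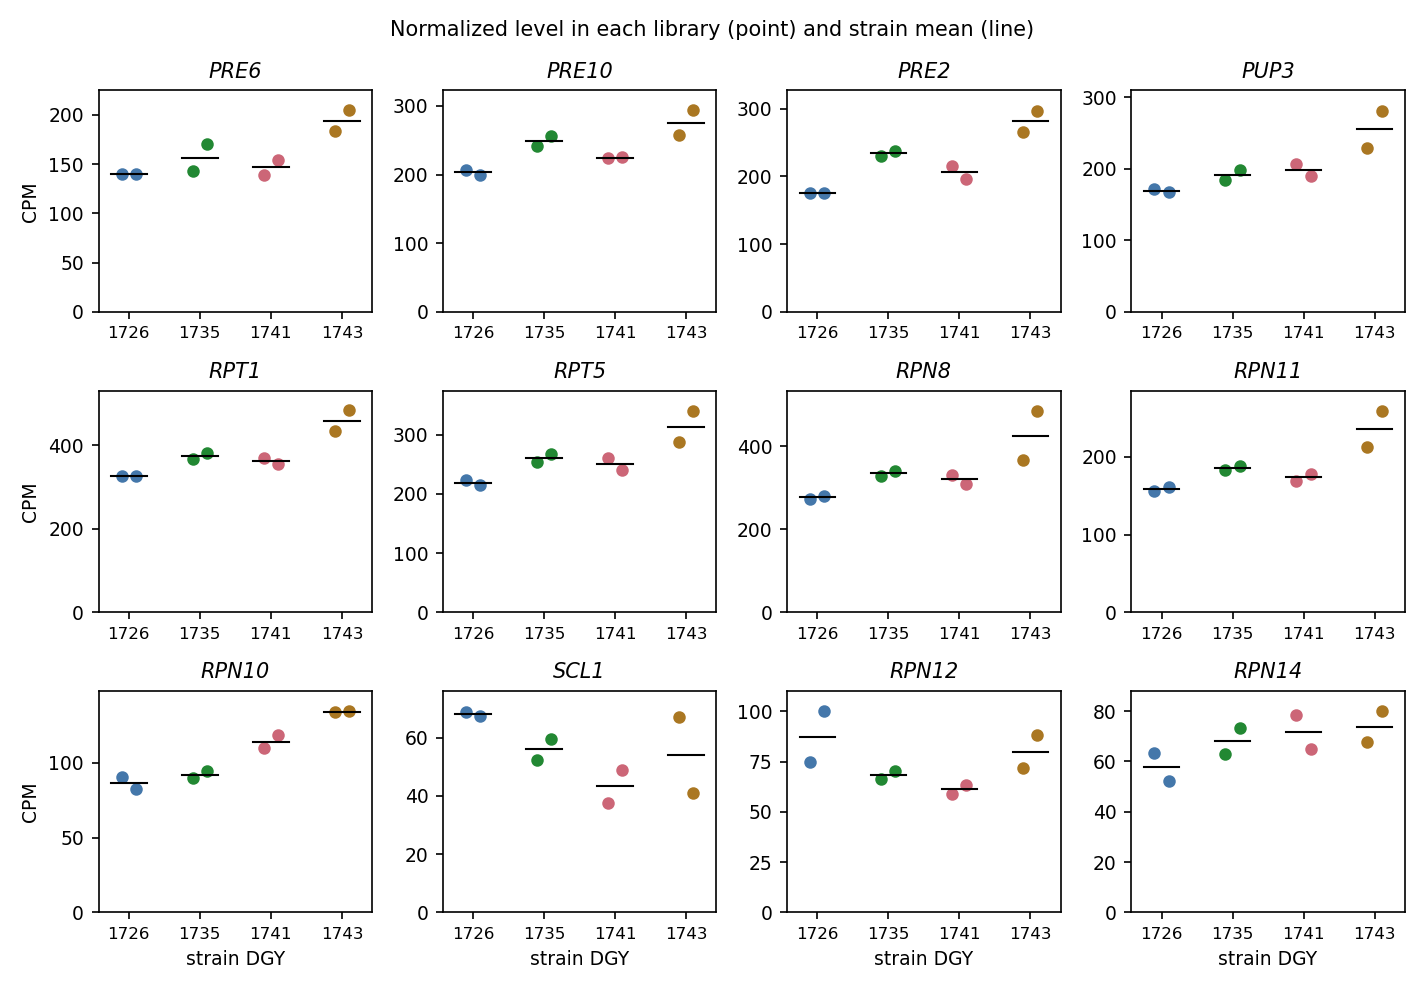
CPM in each library (points) and the strain mean (line) for 11 subunit genes and RPN14, with each axis starting at 0. PRE6, PRE10, PRE2, PUP3, RPT1, RPT5, RPN8, RPN11 and RPN10 are highest in both libraries of DGY1743. SCL1 is highest in both libraries of DGY1726, and RPN12 has its highest mean there but overlaps DGY1743.

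In the base, RPT1 and RPT5, which encode ATPases of the unfolding ring, differed most. RPT1 was at 327 and 325 CPM in DGY1726, 368 and 382 CPM in DGY1735, 370 and 354 CPM in DGY1741 and 435 and 483 CPM in DGY1743. RPT5 was at 223 and 215 CPM in DGY1726, 254 and 267 CPM in DGY1735, 260 and 241 CPM in DGY1741 and 288 and 341 CPM in DGY1743. For both genes DGY1726 was lowest and DGY1743 highest with no overlap, with log2 ratios in DGY1743 of 0.38 (SE 0.09, edgeR adjusted p = 0.00957) for RPT1 and 0.37 (SE 0.09, adjusted p = 0.0135) for RPT5. Both calls in DGY1743 were lost without replicate 2 of that strain, with adjusted p of 0.112 for RPT1 and 0.178 for RPT5. RPT4, also an ATPase gene, had the largest p of the base (0.315) and a log2 ratio of -0.01 in DGY1743.

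SCL1 and RPT4 had slightly negative log2 ratios in DGY1743, and RPN2, the gene of a large scaffold of the base, had the lowest of all subunit genes there. It was at 605 and 587 CPM in DGY1726, 599 and 615 CPM in DGY1735, 617 and 582 CPM in DGY1741 and 517 and 524 CPM in DGY1743. Both libraries of DGY1743 lay below the other 6, but the difference did not pass the test (log2 ratio -0.21, SE 0.09, edgeR adjusted p = 0.125).

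RPN10, whose product binds ubiquitin chains where base and lid meet, had the smallest p of all subunit genes (edgeR adjusted p = 0.00135). It was at 90.7 and 82.8 CPM in DGY1726, 89.6 and 94.5 CPM in DGY1735, 110 and 118 CPM in DGY1741 and 134 and 135 CPM in DGY1743. Here DGY1726 and DGY1735 overlapped at the low end, DGY1741 lay between and DGY1743 was highest. This order separates the strains isolated earlier from those isolated later, and how many of all tested genes show it was not counted. DGY1726 and DGY1735 were also the pair with the fewest calls over all tested genes (1.76%). The log2 ratio was 0.47 (SE 0.08, adjusted p = 0.00225) in DGY1743, which held without any 1 library, and -0.37 (SE 0.09, adjusted p = 0.0118) in DGY1726, which was lost without replicate 2 of DGY1726 (adjusted p = 0.156). RPN10 holds only the 6-base core of PACE.

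In the lid, RPN11 and RPN8 differed most. RPN11 encodes the protease that cuts ubiquitin from substrates and RPN8 its inactive partner. RPN11 was at 157 and 162 CPM in DGY1726, 184 and 188 CPM in DGY1735, 169 and 178 CPM in DGY1741 and 213 and 259 CPM in DGY1743. RPN8 was at 273 and 281 CPM in DGY1726, 328 and 341 CPM in DGY1735, 331 and 310 CPM in DGY1741 and 368 and 484 CPM in DGY1743. Both were highest in DGY1743 without overlap, with log2 ratios of 0.45 (SE 0.09, edgeR adjusted p = 0.00434) for RPN11 and 0.46 (SE 0.10, adjusted p = 0.00932) for RPN8, and the replicates of DGY1743 differed more than those of the other strains. The adjusted p was 0.0868 for RPN11 and 0.175 for RPN8 without replicate 2 of DGY1743. No PACE match was found for RPN8. RPN6, a lid gene with a match, had the largest p of the lid (0.388) at 156 to 198 CPM. Whether genes with and without a match differ was not tested.

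RPN14, an assembly chaperone of the base and not a subunit, was at 63.5 and 52.3 CPM in DGY1726, 63.0 and 73.3 CPM in DGY1735, 78.5 and 65.0 CPM in DGY1741 and 67.5 and 80.1 CPM in DGY1743. The ranges of DGY1735, DGY1741 and DGY1743 overlapped, that of DGY1726 reached lowest, and the test did not pass (edgeR adjusted p = 0.217). SEM1, the lid subunit outside the name rule, was at 118 and 135 CPM in DGY1726, 132 and 135 CPM in DGY1735, 119 and 124 CPM in DGY1741 and 146 and 164 CPM in DGY1743. It was higher in DGY1743 by a log2 ratio of 0.29 (SE 0.09, adjusted p = 0.039), a call lost without replicate 2 of DGY1743 (adjusted p = 0.283) and in 4 other cases of leaving out a library.

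Between single strains the subunit genes differed mainly where DGY1743 was set against DGY1726 or DGY1741. In DGY1726 against DGY1743, 14 of 32 were lower in DGY1726 and none higher, against 13.4% of all tested genes called lower in that pair, and the count was 7 and 8 without replicates 1 and 2 of DGY1726. In DGY1741 against DGY1743, 12 of 32 were lower in DGY1741 and none higher, 6 in each particle, against 14.3% of all tested genes, but the count fell to 1 and 2 without replicates 1 and 2 of DGY1741 and was 6 with no low-count filter. In DGY1735 against DGY1743 the only subunit gene called was RPN10, lower in DGY1735, against 16.1% in either direction, and it was lost without replicate 1 of DGY1735 or replicate 2 of DGY1743. These comparisons share the libraries of DGY1743.

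In DGY1726 against DGY1741, 6 subunit genes were called, with 3 higher in DGY1726 (SCL1, PRE1 and RPN12) and 3 lower (RPN3, RPN9 and RPN10), against 43.2% of all tested genes in either direction. The count was 1 without replicate 2 of DGY1726 and 2 without replicate 1 of DGY1741. In DGY1735 against DGY1741 only RPN10 was called, lower in DGY1735, against 38.5% of all tested genes, and it was lost without replicate 2 of DGY1735 or replicate 1 of DGY1741. In DGY1726 against DGY1735 none was called by edgeR, against 1.76% of all tested genes. An unadjusted edgeR p under 0.05 was found for 8 subunit genes, against 828 of 5527 tested genes. DESeq2 called 0 subunit genes, against 191 of all tested genes.

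Genes that act with the proteasome did not follow one pattern. Among the 9 assembly chaperones, 2 differed among the strains, against 47.3% of all tested genes, and none held a PACE match. TMA17, a chaperone of base assembly that is induced under stress, was at 163 and 173 CPM in DGY1726, 199 and 235 CPM in DGY1735, 125 and 126 CPM in DGY1741 and 188 and 189 CPM in DGY1743. It was lowest in DGY1741 without overlap, as RPN4 was, with a log2 ratio of -0.60 (SE 0.09, edgeR adjusted p = 0.0003). IRC25, a chaperone of the alpha ring, was higher in DGY1741 by 0.41 (SE 0.11, adjusted p = 0.0136), at 38.3 and 39.1 CPM against 24.4 to 33.3 CPM in the other libraries, a call lost without either library of DGY1741 (largest adjusted p = 0.0869). UMP1, which helps to mature the core, was at 12.2 to 20.6 CPM and did not pass (adjusted p = 0.42).

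Of the 8 proteasome-associated genes, 3 differed among the strains, against 47.3% of all tested genes. BLM10 encodes an activator that binds the core particle in place of the regulatory particle. It was at 606 and 674 CPM in DGY1726, 690 and 732 CPM in DGY1735, 403 and 400 CPM in DGY1741 and 462 and 496 CPM in DGY1743. For BLM10 both strains isolated earlier thus lay above both strains isolated later without overlap, a split not counted over all tested genes. Its log2 ratio was 0.52 (SE 0.09, edgeR adjusted p = 0.00146) in DGY1735 and -0.58 (SE 0.10, adjusted p = 0.000476) in DGY1741. The product of CIC1 was described as an adaptor of the proteasome and acts in ribosome assembly. CIC1 was at 142 and 120 CPM in DGY1726, 140 and 97.9 CPM in DGY1735, 80.6 and 95.9 CPM in DGY1741 and 65.5 and 67.7 CPM in DGY1743. Its log2 ratio was -0.74 in DGY1743 (SE 0.14, edgeR adjusted p = 0.00327). It was also called higher in DGY1726, at 0.56, a call lost in 1 of 8 cases of leaving out a library. SPG5, a proteasome regulator known from stationary phase, was higher in DGY1743 by 0.46 (SE 0.10, adjusted p = 0.00673), at 178 and 180 CPM against 112 to 150 CPM in the other libraries, a call lost without replicate 2 of DGY1743 (adjusted p = 0.0603).

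Of the 20 genes of ubiquitin and its conjugation, 8 differed among the strains, a share no higher than the 47.3% of all tested genes. RPL40B, which encodes ubiquitin fused to a ribosomal protein and lies on the amplified segment of chromosome XI, was at 665 and 691 CPM in DGY1726, 952 and 862 CPM in DGY1735, 297 and 359 CPM in DGY1741 and 753 and 760 CPM in DGY1743. It was lowest in DGY1741 (log2 ratio -1.24, SE 0.11, edgeR adjusted p = 4.1e-06), and its copy number differs between the strains. RPL40A, its paralog off the segment, was lower by 0.30 on the log2 scale in DGY1741 (SE 0.10, adjusted p = 0.0308), a call lost in 4 of 8 cases of leaving out a library. Of the 50-base stretches 6.22% in RPL40A and 6.80% in RPL40B occur elsewhere in the genome, so that the split between them is uncertain. UBC5, the gene of a conjugating enzyme known from stress responses, was at 19.8 and 25.7 CPM in DGY1726, 19.7 and 24.1 CPM in DGY1735, 7.75 and 9.39 CPM in DGY1741 and 23.3 and 23.7 CPM in DGY1743. It was lowest in DGY1741 without overlap, by a log2 ratio of -1.40 (SE 0.17, adjusted p = 5.23e-05). UBI4, the stress-induced polyubiquitin gene, which has a PACE match, was at 1648 to 2111 CPM and did not pass (adjusted p = 0.838), and 18.2% of its 50-base stretches occur elsewhere. UBR2, part of the ligase that marks Rpn4 for degradation, did not pass either (adjusted p = 0.501). MUB1, which encodes the partner of Ubr2 in that ligase and was chosen after its values were seen, differed among the strains (adjusted p = 0.0281). It was lower in DGY1726 by a log2 ratio of -0.29 (SE 0.09, edgeR adjusted p = 0.0332) and higher in DGY1743 by 0.29 (SE 0.09, adjusted p = 0.0303), calls lost in 5 and 4 of 8 cases of leaving out a library.

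Among the 7 genes of Cdc48, its cofactors and shuttle factors, which bring ubiquitinated proteins to the proteasome, 4 differed among the strains, against 47.3% of all tested genes, and 4 were lower in DGY1741, against 18.3% called lower there. UFD1 and NPL4, the cofactors of Cdc48 for ubiquitinated substrates, had log2 ratios of -0.43 (SE 0.10, edgeR adjusted p = 0.00572) and -0.38 (SE 0.10, adjusted p = 0.0107), and DSK2, a shuttle factor, had -0.36 (SE 0.12, adjusted p = 0.0294). The UFD1 call was lost without replicate 2 of DGY1741, that of NPL4 without its replicate 1, and that of DSK2 without its replicate 1 or replicate 2 of DGY1726. Of the 4 factors known to act on RPN4 transcription, PDR1 alone differed among the strains (adjusted p = 0.00784), against the same 47.3%. It was at 164 and 167 CPM in DGY1726, 149 and 163 CPM in DGY1735, 120 and 122 CPM in DGY1741 and 168 and 163 CPM in DGY1743, lowest in DGY1741 without overlap (log2 ratio -0.43, SE 0.08, adjusted p = 0.00163), a call that held without any 1 library. HSF1, YAP1 and PDR3 had adjusted p values among the strains of 0.0634, 0.106 and 0.0514. Against the mean of the other 3 strains, PDR3 was also lower in DGY1741 (log2 ratio -0.29, SE 0.09, edgeR adjusted p = 0.0267), a call lost in 4 of 8 cases of leaving out a library. HSF1 was higher in DGY1726 (log2 ratio 0.35, SE 0.10, adjusted p = 0.029), a call lost in 3 of 8 cases, and YAP1 did not pass in any strain against that mean.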

How the data were processed

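The members and gene lists were chosen with earlier results of these data known. The deposited tables hold raw read counts for the features annotated by Ensembl in R64-1-1. Single-end reads of 50 bases were trimmed by the authors with cutadapt and cleared of snRNA, rRNA and tRNA reads. STAR was used for alignment and bedtools for counting by strand, so that a read over several features counts in each. The labels call the RNA polyadenylated, whereas the methods state no such selection. Whether replicate cultures were inoculated from separate colonies is not stated in the labels, so p-values measure the spread between these cultures.

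Strain and replicate number come from each sample's title. Gene rows of 6600 protein-coding genes were read, and 5527 with a mean of at least 100 counts entered the quasi-likelihood F-test (edgeR 4.0.16, R 4.3.3, TMM factors, strain as the only term), with Benjamini-Hochberg adjustment over all tested genes and a threshold of 0.05. The test among the strains and that of a strain against the mean of the other 3 used 8 libraries, and a pair used its 4. The log2 ratios are fitted coefficients, and the SE was taken as the size of the ratio over the square root of F. Library medians used log2(CPM + 0.5). Chi-square per degree of freedom between replicates was 16.1 to 55.8, so that replicates differed by more than sampling noise, and precision is limited by 2 cultures per strain. The fits were tested on simulated data. Sequences came from the RefSeq genome, whose 17 chromosome lengths equal those of the files.

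Named were RPN4, RPN14, RPN10 and PRE9, in each ring, the base and the lid the 2 genes with the smallest and the 1 with the largest p among the strains, in each related list up to 3 genes past the threshold with the smallest p, further UBI4, UBR2, UMP1 and SEM1, and the genes at the ends of a range. Alternatives were DESeq2 1.42.0, other scaling factors, other filters, CDS rows, a threshold of 0.01, each library left out, the replicate number as a block and pairs in the fit of all libraries.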

Additional observations from a re-analysis of the deposited data

How the results depend on the processing

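No direction of a called value reversed. Counts of subunit genes called, where they moved by more than 1.5 times, were as follows. At a threshold of 0.01 in place of 0.05, 4 differed among the strains, 1 was called in DGY1726, 0 in DGY1741 and 6 in DGY1743 against the mean of the other 3, and the pairs gave 3 for DGY1726 with DGY1741, 8 for DGY1726 with DGY1743, 3 for DGY1741 with DGY1743 and 0 for DGY1735 with either DGY1741 or DGY1743. RPN4 in DGY1726 (log2 ratio 0.35) and DGY1735 (0.32) did not pass 0.01. With no low-count filter the count was 5 in DGY1726 and 6 for DGY1741 with DGY1743, and with filterByExpr the latter was 7. DGY1735 with DGY1741 gave 2 with filterByExpr or RLE factors and 0 with DESeq2, and DGY1735 with DGY1743 gave 3 in the fit of all 8 libraries. Without DGY1743 the count among the strains was 4 and without DGY1726 9, and RPN4 had an adjusted p of 0.488 without DGY1741, alternatives chosen after seeing the data. The cause was not tested.

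Leaving out each library in turn gave 6 to 15 genes among the strains, 0 to 12 in DGY1726, 0 to 0 in DGY1735, 0 to 4 in DGY1741 and 4 to 18 in DGY1743. In the pairs it gave 0 to 0 for DGY1726 with DGY1735, 1 to 6 for DGY1726 with DGY1741, 7 to 16 for DGY1726 with DGY1743, 0 to 1 for DGY1735 with DGY1741 and with DGY1743, and 1 to 12 for DGY1741 with DGY1743. The log2 ratio of RPN4 was 0.19 to 0.48 in DGY1726, and in DGY1735 it was 0.24 to 0.39. The core median in DGY1743 was 0.23 to 0.29, and the regulatory median was -0.24 to -0.18 in DGY1726 and -0.136 to -0.082 in DGY1741. A strain left with 1 library was assumed to vary like the others.

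The labels tie no day or batch to a replicate number. Deviations of same-numbered libraries correlated between -0.25 and 0.40, at 0.21 to 0.40 for DGY1726 with each other strain but not for every pair of strains, so the numbers were not taken to pair the libraries. With the replicate block the pairs gave 1 gene for DGY1726 with DGY1735, 12 in place of 6 for DGY1726 with DGY1741, 2 for DGY1735 with DGY1741 and 7 for DGY1741 with DGY1743. Of 65 single-gene calls, 65 kept their side of the threshold with nuclear factors or the block, 62 with DESeq2 or CDS rows, 61 with RLE factors, 55 with filterByExpr and 48 with no filter.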
